A study of Homo sapiens with 24 samples.

Results

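A group of 10 genes of the endoplasmic reticulum (ER), HSPA5, HSP90B1, PDIA4, DNAJB9, SDF2L1, HERPUD1, XBP1, EDEM1, SEL1L, and CALR, was followed in MB468 and MB468res-R8 cells. They were picked by symbol, as chaperones, genes of ER-associated degradation (ERAD), and the transcription factor gene XBP1. They are known as targets of the ATF6 and XBP1 arm of the unfolded protein response (UPR), and make up 10 of the 26645 gene entries of the count table. All 10 were among the 14741 genes that passed the filter on low counts, and the smallest count of any of them in any library was 107. MB468 (MDA-MB-468) is a triple negative breast cancer line that needs Met, and MB468res-R8 is 1 clone, obtained from MB468 by prolonged culture with Hcy in place of Met, that does not. Cells of each line grown in Met+ medium (100 µM Met) gave the 0 h libraries, and Met-Hcy+ medium, in which 370 µM DL-Hcy stood in place of Met, was applied for 0.5, 2, or 12 h before the others. All media held cyanocobalamin, L-glutamine, L-cysteine, and dialyzed serum. Each of the 8 groups had 3 libraries of poly(A) RNA with added ERCC spike-ins, and the labels number them without saying whether they were separate cultures, so that p-values measure the spread between these samples.

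The UPR has 3 sensors in the ER membrane. When unfolded protein draws the chaperone BiP away, ATF6 moves to the Golgi and is cut to release a transcription factor, IRE1 (ERN1) splices the mRNA of XBP1 so that it encodes an active one, and PERK (EIF2AK3) phosphorylates eIF2α, which favors the translation of ATF4. ATF6 and XBP1 raise chaperones, oxidoreductases, and ERAD genes, whereas ATF4, which other eIF2α kinases also raise when amino acids are short, drives genes such as DDIT3 (CHOP) and CHAC1. Counts per gene do not tell spliced from unspliced XBP1 mRNA, and cleavage of ATF6 was not measured.

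ATF6 binds DNA with NF-Y at the ER stress response element (ERSE), written CCAAT, any 9 bases, CCACG, and at ERSE-II, written ATTGG, any 1 base, CCACG. Both strands of the RefSeq promoters (250 bases before to 50 after the start of a transcript, GRCh38.p14) were searched. ERSE was found in 4 of the 10 genes (HSPA5, HSP90B1, XBP1, and CALR) and in 0.0769% of the 35116 promoters, and ERSE-II in 2 (HERPUD1 and SDF2L1) and in 0.0541%. The XBP1 site with the letters TGACGTGG was in 0 of the 10 and in 0.729% of promoters. The amino acid response site of ATF4, written TGATG, any 1 base, AA, was in HERPUD1 alone among the 10 and in 3.62% of promoters. A match describes the letters in this window and is not a bound site. The 10 genes, which have 12 promoter entries, were picked as known targets of the ATF6 and XBP1 arm. Matches among them are therefore a description and not a test. The 6 promoters with an ERSE or ERSE-II are given from the base 250 before the RefSeq start to the base just before it, 5′ to 3′ on the strand of the gene, with the matches in capitals, since each holds at least 1 of these elements. They lie at chr9:125241344-125241593 (minus strand, HSPA5), chr12:103930160-103930409 (plus, HSP90B1), chr22:28800570-28800819 (minus, XBP1), chr19:12938359-12938608 (plus, CALR), chr16:56931892-56932141 (plus, HERPUD1), and chr22:21642052-21642301 (plus, SDF2L1).
HSPA5: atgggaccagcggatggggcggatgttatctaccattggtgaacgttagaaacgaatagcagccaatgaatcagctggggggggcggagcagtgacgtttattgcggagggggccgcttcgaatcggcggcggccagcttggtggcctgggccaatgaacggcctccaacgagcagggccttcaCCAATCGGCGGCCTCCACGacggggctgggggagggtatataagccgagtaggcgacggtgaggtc
HSP90B1: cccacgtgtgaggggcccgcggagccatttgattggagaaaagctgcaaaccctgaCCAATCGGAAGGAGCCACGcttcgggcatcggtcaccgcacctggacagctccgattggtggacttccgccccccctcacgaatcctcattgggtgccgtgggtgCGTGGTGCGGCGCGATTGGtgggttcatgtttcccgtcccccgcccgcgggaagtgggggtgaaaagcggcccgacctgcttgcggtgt
XBP1: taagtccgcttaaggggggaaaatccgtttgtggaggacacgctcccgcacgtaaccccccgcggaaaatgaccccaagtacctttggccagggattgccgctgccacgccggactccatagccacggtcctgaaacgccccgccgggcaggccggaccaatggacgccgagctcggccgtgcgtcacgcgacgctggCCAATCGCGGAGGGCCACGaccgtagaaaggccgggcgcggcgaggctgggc
CALR: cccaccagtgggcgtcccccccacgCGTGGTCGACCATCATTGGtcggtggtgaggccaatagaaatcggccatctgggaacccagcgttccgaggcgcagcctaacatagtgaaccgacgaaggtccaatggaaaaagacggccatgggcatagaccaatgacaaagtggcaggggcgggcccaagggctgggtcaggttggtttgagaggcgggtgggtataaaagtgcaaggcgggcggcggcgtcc
HERPUD1: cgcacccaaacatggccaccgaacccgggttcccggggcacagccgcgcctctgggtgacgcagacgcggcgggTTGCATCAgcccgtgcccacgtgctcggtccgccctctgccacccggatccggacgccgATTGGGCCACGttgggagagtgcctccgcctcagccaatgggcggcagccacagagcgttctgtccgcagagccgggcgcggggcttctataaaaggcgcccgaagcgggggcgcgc
SDF2L1: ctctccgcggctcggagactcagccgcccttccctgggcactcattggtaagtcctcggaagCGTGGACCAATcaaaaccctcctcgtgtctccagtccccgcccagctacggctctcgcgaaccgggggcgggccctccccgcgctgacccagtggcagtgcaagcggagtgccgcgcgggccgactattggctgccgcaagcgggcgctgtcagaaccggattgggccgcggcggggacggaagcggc

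The ERSE of HSPA5 began 66 bases before the start and that of XBP1 52 bases before it. HSP90B1 had 2, the second on the other strand. HERPUD1 was the one gene of the 10 with both kinds of element in capitals, an ATF4-type site and an ERSE-II.

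The libraries held between 11713037 and 36402932 gene counts, with a median of 20452797. Values are normalized counts, that is, counts divided by the library size after TMM scaling and multiplied by the mean of these sizes. Genes were compared with edgeR's quasi-likelihood test and are called changed at an adjusted p under 0.05. The epithelial markers EPCAM, CDH1, KRT8, KRT18, and KRT19 and the basal markers KRT5, KRT14, KRT17, and EGFR were at 69.8 CPM (counts scaled to the library total) or more in all 24 libraries. Among the receptors, PGR was at most 0.0983 CPM, ESR1 was between 4.15 and 22.6 CPM, and ERBB2 was between 38.3 and 97.3 CPM. Of 5 markers of blood, endothelial, and stromal cells, PTPRC, COL1A2, and DCN were at most 0.199 CPM, PECAM1 at most 2.67 CPM, and COL1A1 between 14.6 and 73.2 CPM. Replicate 2 of MB468 at 2 h stood apart, with 704.8 CPM of RN7SK, an RNA without a poly(A) tail, against at most 10.2 CPM in the other 23 libraries. In such bulk libraries, less RNA in every cell and fewer cells with that RNA cannot be told apart.

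The response differed by time. Within 0.5 h of the switch, HERPUD1 and XBP1 rose in both lines and DNAJB9 in MB468res-R8. The values of the chaperones HSPA5, HSP90B1, and CALR moved by at most 0.11 on the log2 scale. When library sizes came from the spike-ins, these chaperones lay between -0.21 and 0.16, and the rise of XBP1 was not called in either line. At 12 h calls went in both directions in either line (9 of the 10 genes in MB468 and 6 in MB468res-R8). Under library sizes from the spike-ins, DNAJB9 alone was still called higher in MB468, and none of the 10 was called higher in MB468res-R8. For 8 of the 10 the response differed between the lines (5 with library sizes from the spike-ins). Over all tested genes, 36.1% were called higher and 34.7% lower in MB468 at 12 h, and 30.2% and 31.1% in MB468res-R8. For the line difference 26.2% were higher and 30.3% lower, and with library sizes from the spike-ins 5797 of 14741 genes were called. In MB468, HSPA5, DNAJB9, SEL1L, and HERPUD1 were called higher and PDIA4, CALR, EDEM1, XBP1, and HSP90B1 lower, whereas in MB468res-R8 only HSP90B1 was called higher and HERPUD1, XBP1, DNAJB9, EDEM1, and HSPA5 lower.

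**Figure D1:**
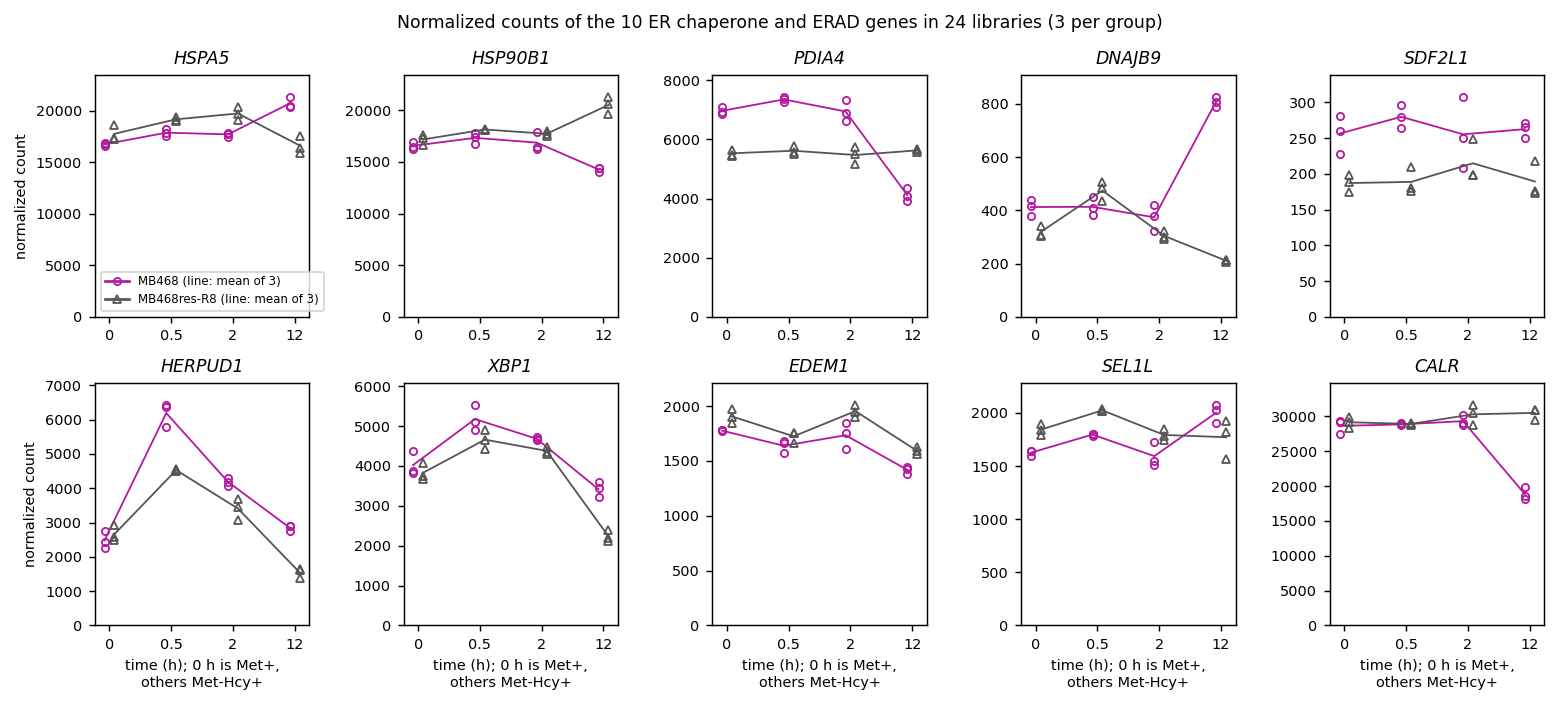
Normalized counts (y axis, from 0) of each of the 10 genes in the 24 libraries by hours after the switch (x axis, not to scale), with MB468 as circles and MB468res-R8 as triangles and lines through the means of 3 libraries. HERPUD1 peaked at 0.5 h in both lines, while at 12 h DNAJB9 was near 808 in MB468 and 211 in MB468res-R8 and PDIA4 and CALR were lower in MB468 only.

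The early response centered on HERPUD1 (chr16:56932142-56944864 in GENCODE on GRCh38, plus strand), an ER membrane protein that helps to assemble the HRD1 ubiquitin ligase complex of ERAD. In MB468 it had normalized counts of 2432, 2254, and 2756 at 0 h, 6369, 5784, and 6419 at 0.5 h, and 4173, 4302, and 4075 at 2 h. In MB468res-R8 it had 2481, 2919, and 2582 at 0 h, 4493, 4526, and 4565 at 0.5 h, and 3465, 3688, and 3072 at 2 h. All libraries of 0.5 and 2 h lay above all of 0 h in both lines, and at 0.5 h all of MB468 lay above all of MB468res-R8. The log2 fold change at 0.5 h was 1.33 ± 0.08 (SE, n = 3 against 3, adjusted p = 3.87e-12), a rise of 151% in MB468, and 0.77 ± 0.08 (adjusted p = 2.88e-08), a rise of 70.4%, in MB468res-R8. The line difference, which is the log2 fold change in MB468res-R8 less the one in MB468, was -0.56 ± 0.11 at 0.5 h (adjusted p = 0.00303, and -0.29 with an adjusted p = 0.381 when library sizes came from the spike-ins) and -0.40 ± 0.11 at 2 h (adjusted p = 0.0323). At 2 h the rise was 0.76 ± 0.08 in MB468 (adjusted p = 1.48e-07) and 0.36 ± 0.08 in MB468res-R8 (adjusted p = 0.00427). The line difference at 2 h did not pass the test when any of 8 of its 12 libraries was left out (adjusted p up to 0.0871), and lay between -0.47 and -0.33 over the 12 omissions. These were replicates 1 and 2 of MB468 and replicate 2 of MB468res-R8 at 0 h, all 3 of MB468 at 2 h, the one rich in RN7SK included, and replicates 1 and 3 of MB468res-R8 at 2 h. The 2 h rise in MB468res-R8 did not pass without replicate 2 of MB468res-R8 at 2 h (log2 fold change 0.30, adjusted p = 0.052). With library sizes from the spike-ins it was 0.32 (adjusted p = 0.503) and the line difference at 2 h was -0.02 (adjusted p = 0.948), neither of them called.

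XBP1 (chr22:28794555-28800597, minus strand), which encodes the transcription factor made active by IRE1, rose at the same times by less. Its normalized counts in MB468 were 3822, 3879, and 4376 at 0 h, 5099, 4903, and 5523 at 0.5 h, and 4649.7, 4716, and 4673 at 2 h. In MB468res-R8 they were 3744, 4079, and 3668 at 0 h, 4431, 4653, and 4895 at 0.5 h, and 4362, 4468, and 4301 at 2 h. At both times all libraries lay above those of 0 h of the same line. The log2 fold changes were 0.36 ± 0.05 in MB468 (adjusted p = 4.75e-07) and 0.28 ± 0.05 in MB468res-R8 (adjusted p = 3.43e-05) at 0.5 h, and 0.22 ± 0.05 (adjusted p = 0.00218) and 0.19 ± 0.05 (adjusted p = 0.0197) at 2 h. The line difference was -0.08 at 0.5 h (95% interval -0.23 to 0.07) and -0.03 at 2 h (-0.18 to 0.12), and neither passed the test. With library sizes from the spike-ins the values at 0.5 h were 0.14 in MB468 and 0.32 in MB468res-R8 and were not called (adjusted p = 0.429 and 0.0793), and that at 2 h in MB468 turned to -0.20. That in MB468res-R8 at 2 h did not pass without replicate 1 or 3 at 0 h or replicate 1 or 2 at 2 h of that line (adjusted p up to 0.164), and lay between 0.16 and 0.24 over the 6 omissions.

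DNAJB9 (ERdj4, chr7:108569867-108574850, plus strand), a J-domain partner of BiP that restrains IRE1, rose at 0.5 h in MB468res-R8, from 305, 309, and 341 normalized counts to 483, 433, and 506. In MB468 the values at 0 h, 380.4, 439, and 417, overlapped those at 0.5 h, 449, 382, and 408. The rise in MB468res-R8 was 0.58 ± 0.09 on the log2 scale (adjusted p = 6.27e-07), the value in MB468 was 0.01 ± 0.09 (adjusted p = 0.948), and the lines differed by 0.57 ± 0.12 (adjusted p = 0.00284). By 2 h DNAJB9 in MB468res-R8 was back at 299, 292, and 321.

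Among the other genes, HSPA5 rose by 0.09 ± 0.04 in MB468 and 0.11 ± 0.04 in MB468res-R8 at 0.5 h and by 0.15 ± 0.04 in MB468res-R8 at 2 h, and SEL1L by 0.14 ± 0.05 in both lines at 0.5 h, with adjusted p between 0.00894 and 0.0485. EDEM1 fell by 0.15 on the log2 scale in MB468res-R8 at 0.5 h (adjusted p = 0.0126). These are small changes, and each passed or failed with single libraries. The calls of HSPA5 and SEL1L in MB468 at 0.5 h were lost on leaving out any of their 6 libraries (adjusted p up to 0.234 and 0.144), and both turned negative, to -0.12 and -0.07, with library sizes from the spike-ins. In MB468res-R8 the call of HSPA5 was lost at 0.5 h without replicate 1 or 3 at 0 h or replicate 2 at 0.5 h (adjusted p up to 0.118), and at 2 h without replicate 1 or 3 at 0 h or replicate 2 at 2 h (up to 0.129). That of SEL1L was lost without any of its 6 libraries but replicate 2 at 0 h (up to 0.184), and that of EDEM1 without replicate 2 at 0 h or replicate 1 at 0.5 h (up to 0.0765). HSP90B1, PDIA4, SDF2L1, and CALR were not called at 0.5 or 2 h in either line, and their log2 fold changes lay between -0.01 and 0.20.

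In counts, 4 of the 10 genes were called higher and 0 lower in MB468 at 0.5 h, where 17.6% of all tested genes were called higher and 16.4% lower, and 5 higher and 1 lower in MB468res-R8 (17.4% and 16.3%). At 2 h 2 were called higher and 0 lower in MB468 (8.88% and 7.47%) and 3 higher and 0 lower in MB468res-R8 (2.52% and 1.85%). At 0.5 h the 10 genes had a median log2 fold change of 0.09 in each line, beside 0.01 in MB468 and 0.00 in MB468res-R8 over all genes. With library sizes from the spike-ins 1 was higher and 0 lower in MB468 at 0.5 h, 1 higher and 8 lower at 2 h, and in MB468res-R8 2 higher and 0 lower at 0.5 h and 0 and 0 at 2 h. Over all 14741 genes these sizes gave 3287 calls in MB468 at 0.5 h (14% of them higher) and 9511 at 2 h (2.52%). In MB468res-R8 they gave 2023 at 0.5 h (59%) and 180 at 2 h (63.9%). Between the lines, 1 gene was called higher (DNAJB9) and 1 lower (HERPUD1) in the 0.5 h response (1.20% and 1.70% of all genes) and 0 higher and 1 lower (HERPUD1) in the 2 h response (2.19% and 2.88%). The comparisons of a line at 0.5, 2, and 12 h share its 0 h libraries, and the line differences use the same libraries again. No Met+ library was taken at 0.5 or 2 h, so that time, fresh medium, and lack of Met cannot be told apart.

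At 12 h, HSPA5 and its partner DNAJB9 were higher in MB468 and lower in MB468res-R8. HSPA5 (chr9:125234853-125241382, minus strand) encodes BiP, the ER Hsp70 that holds the UPR sensors inactive. Its normalized counts in MB468 were 16619.5, 16888, and 16738 at 0 h and 20326, 20452, and 21385 at 12 h, without overlap. In MB468res-R8 they were 17397, 18661, and 17248 at 0 h and 15872, 17591, and 16436 at 12 h, and the groups overlapped. The log2 fold change was 0.31 ± 0.04 in MB468 (adjusted p = 1.94e-09), a rise of 23.7%, and -0.10 ± 0.04 in MB468res-R8 (adjusted p = 0.0266), and the line difference was -0.40 ± 0.05 (adjusted p = 2.22e-08). The fall in MB468res-R8 did not pass without replicate 1 or 2 at 0 h or replicate 1 or 3 at 12 h of that line (adjusted p up to 0.405), and lay between -0.14 and -0.04 over the 6 omissions.

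DNAJB9 had the widest spread of the 10 genes between the lines at 12 h, with 827, 787, and 809 normalized counts in MB468 and 206, 214, and 213 in MB468res-R8. The 6 libraries at 12 h thus lay above or below all 18 others. Against 0 h its log2 fold change was 0.97 ± 0.08 in MB468 (adjusted p = 4.02e-14), a rise of 96%, and -0.59 ± 0.09 in MB468res-R8 (adjusted p = 7.38e-07), a change of -33.5%. The line difference was -1.56 ± 0.12 (95% interval -1.81 to -1.31, adjusted p = 3.78e-14). Per kilobase of its main transcript it was the lowest of the 10 at 0 h, 7.52 CPM per kb in MB468.

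HERPUD1 and XBP1 went from their early peak to their lowest level in MB468res-R8. HERPUD1 was at 1378, 1635, and 1619.9 normalized counts in MB468res-R8 and 2752, 2897, and 2889 in MB468 at 12 h, and XBP1 at 2129, 2382, and 2199 in MB468res-R8 and 3435, 3588, and 3221 in MB468. Both genes were thus lower in all 3 MB468res-R8 libraries at 12 h than in any of the other 21 libraries. In MB468res-R8 the fall was -0.79 ± 0.08 for HERPUD1 (adjusted p = 1.6e-08) and -0.78 ± 0.05 for XBP1 (adjusted p = 3.18e-15), changes of -42% and -41.7%. In MB468 the log2 fold change of XBP1 was -0.24 ± 0.05 (adjusted p = 0.000116). That of HERPUD1 in MB468 was 0.20 ± 0.08 (adjusted p = 0.0203), with 1 library at 0 h (2756) above the lowest at 12 h (2752). It turned to -0.04 with library sizes from the spike-ins and did not pass without replicate 1 or 2 at 0 h or replicate 2 or 3 at 12 h of MB468 (adjusted p up to 0.133), and lay between 0.13 and 0.25 over the 6 omissions. The line differences were -0.99 ± 0.11 (HERPUD1, adjusted p = 7.81e-08) and -0.54 ± 0.07 (XBP1, adjusted p = 8.43e-08).

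SEL1L (chr14:81471547-81533853, minus strand), the adaptor that joins substrates to the HRD1 ligase, went with HSPA5 in MB468, from 1591, 1642, and 1644 normalized counts at 0 h to 2029, 2073, and 1902 at 12 h, without overlap. In MB468res-R8 it was 1789.9, 1894, and 1844 at 0 h and 1571, 1920.0, and 1825 at 12 h, and replicate 1 at 12 h was the lowest library of that line. The log2 fold change was 0.30 ± 0.05 in MB468 (adjusted p = 3.8e-06) and -0.06 ± 0.05 in MB468res-R8 (adjusted p = 0.359), and the line difference was -0.36 ± 0.08 (adjusted p = 9.08e-05).

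PDIA4, CALR, and HSP90B1, genes of protein folding, fell in MB468 at 12 h. PDIA4 (ERp72, chr7:149003062-149028662, minus strand), a protein disulfide isomerase, had 7108, 6918, and 6879 normalized counts in MB468 at 0 h and 3915, 4076, and 4371 at 12 h. In MB468res-R8 it stayed within 5177 to 5783 in all 12 libraries. Its log2 fold change was -0.76 ± 0.04 in MB468 (adjusted p = 2.39e-19), a change of -40.9%, and 0.03 in MB468res-R8 (95% interval -0.06 to 0.11), and the line difference was 0.78 ± 0.06 (adjusted p = 1.41e-14). The order of the lines was thus inverted: all MB468 libraries at 0, 0.5, and 2 h lay above all those of MB468res-R8, and all at 12 h below them.

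CALR (chr19:12938578-12944489, plus strand), a lectin chaperone of glycoproteins that also binds calcium, had the highest level per kilobase of the 10, 662 CPM per kb in MB468 at 0 h. Its normalized counts in MB468 were 29294, 29138, and 27428 at 0 h and 18141, 18529, and 19911 at 12 h, and the other 21 libraries of both lines lay between 27428 and 31593. The log2 fold change was -0.60 ± 0.04 in MB468 (adjusted p = 2.18e-17), a change of -34.1%, and 0.07 in MB468res-R8 (95% interval -0.01 to 0.14, adjusted p = 0.137), and the line difference was 0.67 ± 0.05 (adjusted p = 1.01e-13).

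HSP90B1 (GRP94, chr12:103930107-103953931, plus strand), the Hsp90 of the ER, moved in opposite directions. It had 16484, 16893, and 16282 normalized counts in MB468 at 0 h and 14372, 14377, and 14039.6 at 12 h, against 17593, 16639, and 17278 and 19598, 21321, and 20599 in MB468res-R8. Neither line's groups overlapped. The log2 fold change was -0.22 ± 0.04 in MB468 (adjusted p = 3.31e-06) and 0.26 ± 0.04 in MB468res-R8 (adjusted p = 1.9e-07), and the line difference was 0.47 ± 0.05 (adjusted p = 6.46e-10). With library sizes from the spike-ins the rise in MB468res-R8 was 0.28 and missed the threshold (adjusted p = 0.0594). The library kit does not mark strand, and exons of HSP90B1 share 805 bases with UQCC6 on the opposite strand. The count table lists that gene as C12orf73 with 118 to 495 counts a library, against at least 8472 for HSP90B1. CALR and EDEM1 share 270 and 631 exonic bases with noncoding genes on the opposite strand.

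EDEM1 and SDF2L1 did not differ between the lines in their 12 h response by the test. EDEM1 (chr3:5187646-5219958, plus strand), which trims mannose from glycoproteins bound for ERAD, went from between 1769 and 1780.2 normalized counts to between 1384 and 1444 in MB468, and from between 1846 and 1969 to between 1558 and 1624 in MB468res-R8. Both falls were without overlap, -0.32 ± 0.05 (adjusted p = 6.4e-08) and -0.26 ± 0.05 (adjusted p = 6.4e-06), and the line difference was 0.06 (95% interval -0.07 to 0.20). The fall in MB468res-R8 was -0.24 and not called with library sizes from the spike-ins (adjusted p = 0.143). SDF2L1 (chr22:21642302-21644299, plus strand), a soluble partner of BiP and its J-domain proteins, was between 208 and 308 in MB468 and between 173 and 248 in MB468res-R8 and was not called against 0 h at any time. Its counts were the lowest of the 10, and the interval of its line difference at 12 h, -0.35 to 0.33, covers changes as large as those of SEL1L in MB468.

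**Figure D2:**
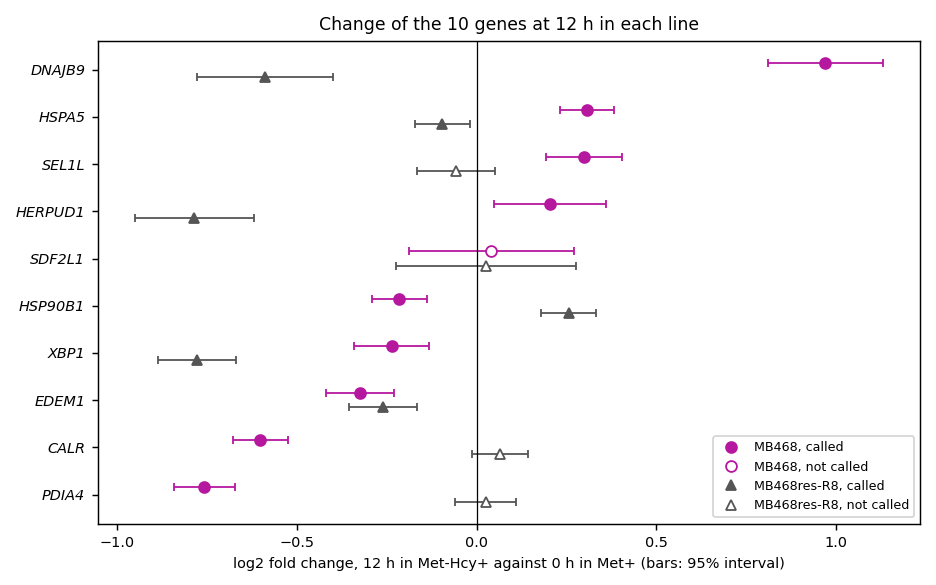
Log2 fold change at 12 h against 0 h (x axis) of the 10 genes in each line, with 95% intervals of edgeR's fit, circles for MB468, triangles for MB468res-R8, and open symbols where the adjusted p was 0.05 or more. HSPA5, DNAJB9, HERPUD1, and HSP90B1 were called in opposite directions in the lines, of which DNAJB9 alone was still so called with library sizes from the spike-ins.

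In counts, 4 of the 10 genes were called higher and 5 lower in MB468 at 12 h, where 36.1% of all tested genes were called higher and 34.7% lower. In MB468res-R8 1 was called higher and 5 lower (30.2% and 31.1% of all genes), and for the difference between the lines 3 were higher and 5 lower (26.2% and 30.3%). Their median log2 fold change was -0.09 in MB468, -0.08 in MB468res-R8, and -0.19 for the difference, beside 0.01, -0.02, and -0.05 over all genes. Calls in opposite directions in the lines were made for 4 of the 10, HSPA5, HSP90B1, DNAJB9, and HERPUD1, and for 11.6% of all genes, and with library sizes from the spike-ins for 1 of the 10, DNAJB9. Library sizes from the spike-ins moved the median of all genes to -0.23 in MB468 at 12 h and to 0.00 in MB468res-R8. With them 1 of the 10 genes was called higher and 5 lower in MB468, 0 and 3 in MB468res-R8, and 3 and 2 for the line difference, whose median turned to 0.08. Over all 14741 genes they gave 8460 calls in MB468 (30% of them higher), 5887 in MB468res-R8 (47%), and 5797 for the line difference (69.9%). The line differences of HSPA5, XBP1, and SEL1L were then -0.14, -0.28, and -0.09 and were not called. The values of HSPA5 and SEL1L in MB468 fell to 0.07 each and were not called (adjusted p = 0.649 and 0.673), while DNAJB9 kept 0.74 (adjusted p = 2.11e-06) and PDIA4 and CALR had -0.996 and -0.84. No 12 h library in Met+ medium was part of the design, so that time and medium cannot be told apart.

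At 0 h, with both lines in Met+ medium, 1 of the 10 genes was higher and 3 were lower in MB468res-R8 (26.4% and 27.1% of all genes). PDIA4 was at 5487, 5657, and 5455 normalized counts in MB468res-R8 and at 7108, 6918, and 6879 in MB468, a log2 difference of -0.33 ± 0.04 (adjusted p = 8.01e-09). DNAJB9 was at 305, 309, and 341 against 380.4, 439, and 417, a difference of -0.38 ± 0.09 (adjusted p = 0.000303). SDF2L1 was at 174, 188, and 199 against 281, 228, and 260.0, a difference of -0.46 ± 0.12 (adjusted p = 0.00145). These 3 did not overlap between the lines. SEL1L was higher by 0.18 ± 0.05 (adjusted p = 0.00469), and lower by -0.13 with library sizes from the spike-ins, under which the median of all genes was -0.31. The other 6 had log2 differences between -0.07 and 0.11. With library sizes from the spike-ins they lay between -0.38 and -0.21, and 0 of the 10 genes were called higher and 5 lower, XBP1 (-0.38, adjusted p = 0.00821) and CALR (-0.28, adjusted p = 0.0463) among them. Over all 14741 genes these sizes gave 7639 calls, of which 15% were higher. Per kilobase of the main transcript, the order in MB468 at 0 h was CALR at 662, HSP90B1 at 262, HSPA5 at 188, PDIA4 at 111, XBP1 at 98.8, HERPUD1 at 38.2, SDF2L1 at 13.7, EDEM1 at 12.8, SEL1L at 9.02, and DNAJB9 at 7.52 CPM per kb. SDF2L1 and EDEM1 differed by less than the SD of SDF2L1 of 1.42 over 3 libraries, so that their order is not resolved.

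Over the 8 groups, the order of a gene's levels also separated these patterns. From its highest to its lowest group mean HERPUD1 spanned 4.01-fold (MB468 at 0.5 h to MB468res-R8 at 12 h), DNAJB9 3.83-fold (MB468 at 12 h to MB468res-R8 at 12 h), and XBP1 2.31-fold (the same groups as HERPUD1). PDIA4 spanned 1.78-fold (MB468 at 0.5 h to MB468 at 12 h), CALR 1.62-fold, SDF2L1 1.5-fold, HSP90B1 1.44-fold, EDEM1 1.38-fold, SEL1L 1.27-fold, and HSPA5 1.25-fold. The neighbours at the top of the order did not overlap for HERPUD1, XBP1, DNAJB9, PDIA4, and HSP90B1, while for HSPA5 the top group, MB468 at 12 h, overlapped MB468res-R8 at 2 h. For CALR, the groups other than MB468 at 12 h each overlapped the next.

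As a description over the 8 group means of log2 CPM, which share libraries, scaling, and time points, HERPUD1 and XBP1 ran most alike (Pearson r = 0.915), and HSP90B1 ran with CALR (0.818) and against DNAJB9 (-0.878). Among 9973 other genes, the 3 most like XBP1 were TSC22D3 (0.989), SASH1 (0.986), and SAMD12 (0.986), those most like HERPUD1 were VANGL2 (0.975), C5orf42 (0.964), and EGR3 (0.959), and those most like HSPA5 were ACVR1 (0.952), CCPG1 (0.929), and LINC00339 (0.923).

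Genes of the PERK and ATF4 arm also rose early, as HERPUD1 did. Of 12 such genes, 11 were called higher and 1 lower in MB468 at 0.5 h (17.6% and 16.4% of all genes) and at 2 h (8.88% and 7.47%), and 11 higher and 0 lower at 12 h (36.1% and 34.7%), with median log2 fold changes of 1.04 at 0.5 h and 1.58 at 12 h. In MB468res-R8 10 were higher and 1 lower at 0.5 h (17.4% and 16.3% of all genes), and 4 higher and 0 lower at 2 h (2.52% and 1.85%). At 12 h 4 were higher and 6 lower in that line (30.2% and 31.1% of all genes). CHAC1, which degrades glutathione, rose in MB468 from 113, 131, and 126 normalized counts at 0 h to 1335, 1176, and 1606 at 0.5 h and 2580, 2608, and 2606 at 12 h (log2 fold change 4.4 ± 0.10 at 12 h, adjusted p = 8.88e-30). In MB468res-R8 it was at 921, 945, and 1039 at 0.5 h and at 182, 181, and 186 at 12 h, below its 228, 243, and 225 at 0 h. DDIT3 (CHOP) rose by 1.98 ± 0.12 and 1.53 ± 0.12 at 0.5 h in MB468 and MB468res-R8, was at 2.39 ± 0.12 in MB468 at 12 h (adjusted p = 5.31e-21), and had 0.23 ± 0.13 in MB468res-R8 (adjusted p = 0.127). PPP1R15A (GADD34), which reverses the phosphorylation of eIF2α, rose by 0.83 ± 0.05 and 0.81 ± 0.05 at 0.5 h, and at 12 h was at 1.90 ± 0.05 in MB468 (adjusted p = 1.39e-29) and -0.62 ± 0.06 in MB468res-R8 (adjusted p = 2.15e-12). In MB468, DDIT3, CHAC1, and PPP1R15A were thus higher against 0 h at 12 h than at 0.5 h, whereas HERPUD1 went from 1.33 to 0.20. The arm was not uniform: ATF3, a transcription factor singled out after its values were seen, went from 2.59 ± 0.15 at 0.5 h to -0.07 ± 0.16 at 12 h (adjusted p = 0.702) in MB468.

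**Figure D3:**
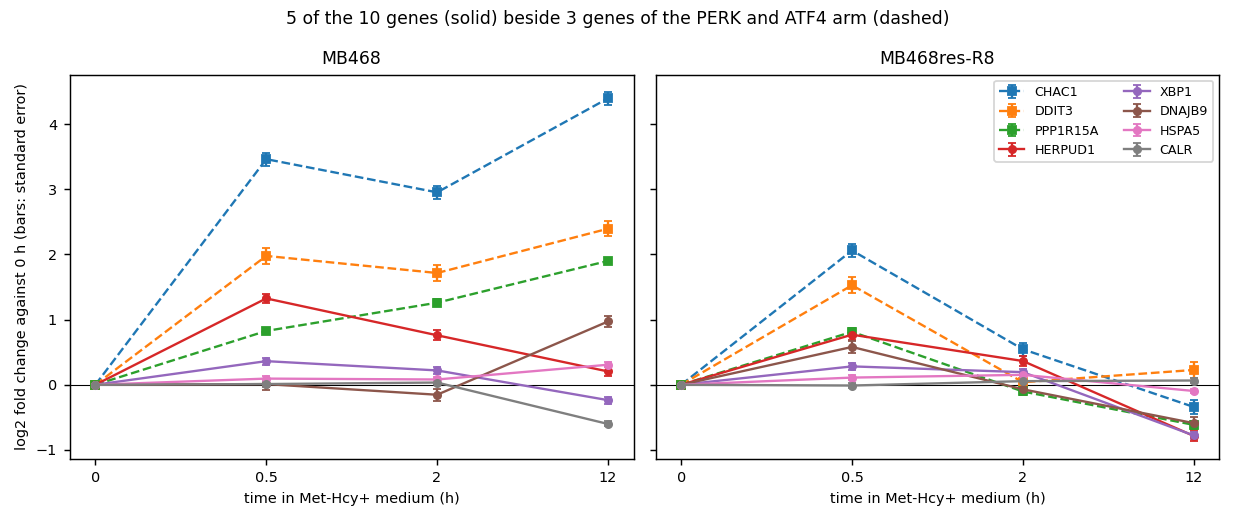
Log2 fold change against 0 h (y axis, bars are standard errors) at 0, 0.5, 2, and 12 h (x axis, not to scale) in MB468 (left) and MB468res-R8 (right), with 5 of the 10 genes as solid lines and CHAC1, DDIT3, and PPP1R15A as dashed lines. HERPUD1 (red) rose with the dashed genes at 0.5 h, and at 12 h the dashed genes were at 1.90 or more in MB468 while HSPA5 was at 0.31 and CALR at -0.60.

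Among the sensors, as for the lists that follow, counts at 12 h stand beside 36.1% of all tested genes called higher and 34.7% lower in MB468, 30.2% and 31.1% in MB468res-R8, and 26.2% and 30.3% for the line difference. ERN1, which encodes IRE1, rose in MB468 from 222, 269, and 229 normalized counts at 0 h to 342, 389, and 293 at 2 h and 571, 561, and 521 at 12 h, without overlap at either time. In MB468res-R8 it was between 151 and 182 at 12 h and between 189.6 and 197 at 0 h. Its log2 fold change at 12 h was 1.19 ± 0.09 in MB468 (adjusted p = 1.02e-14) and -0.19 ± 0.11 in MB468res-R8 (adjusted p = 0.12), and the line difference was -1.38 ± 0.14 (adjusted p = 5.14e-11). ATF6 had 0.03 ± 0.04 in MB468 (adjusted p = 0.502) and -0.18 ± 0.05 in MB468res-R8 (adjusted p = 0.000726), and a line difference of -0.21 ± 0.06 (adjusted p = 0.00394) that turned to 0.05 with library sizes from the spike-ins. EIF2AK3 (PERK), named after its values were seen, had 0.11 ± 0.06 in MB468 (adjusted p = 0.096), -0.74 ± 0.06 in MB468res-R8 (adjusted p = 2.34e-13), and a line difference of -0.85 ± 0.09 (adjusted p = 4.36e-11). Of 8 sensors and transducers, 5 were called higher and 0 lower in MB468 at 12 h, 0 higher and 4 lower in MB468res-R8, and 0 higher and 7 lower for the line difference. With spike-in library sizes the counts were 2 and 0, 0 and 2, and 0 and 4. They stand beside the calls over all genes with such sizes given above, as do those of the lists that follow. One of the calls, ATF6B (1.41 ± 0.50, adjusted p = 0.013, and a line difference of -2.37 ± 0.78), rested on replicate 2 of MB468 at 12 h. That library had 87.4 normalized counts against 14.7 and 12.0 in the other 2, and without it the value was 0.01 ± 0.38 (adjusted p = 0.978) and the line difference -0.97 ± 0.55 (adjusted p = 0.136).

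Other genes of folding and degradation also moved in both directions. Of 27 tested ERAD genes, 15 were called higher and 8 lower in MB468 at 12 h (median 0.13), 11 higher and 9 lower in MB468res-R8 (median -0.05), and 5 higher and 14 lower for the line difference (median -0.18). Spike-in library sizes changed these to 4 and 8 (median -0.10), 4 and 2, and 5 and 1 (median 0.08), so that the list has no direction that holds under both scalings. UBE2J2, a ubiquitin-conjugating enzyme of the ER membrane, and HERPUD2, a relative of HERPUD1, rose most in MB468, by 1.06 ± 0.05 (adjusted p = 1.01e-22) and 0.996 ± 0.06 (adjusted p = 1.84e-18). In MB468res-R8 at 12 h UBE2J2 rose by 0.43 ± 0.05 (adjusted p = 1.59e-09), and HERPUD2 was at -0.05 and not called. VCP, the ATPase that draws substrates out of the membrane, fell in MB468 from 9887, 9802, and 9566 normalized counts to 5856, 6246, and 6123, and had a line difference of 0.91 ± 0.05 (adjusted p = 6.44e-18), while that of HERPUD2 was -1.05 ± 0.08 (adjusted p = 3.54e-14).

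Of 13 other chaperones and co-chaperones, 6 were called higher and 4 lower in MB468 at 12 h and 4 higher and 4 lower for the line difference (0 and 4, and 4 and 0, with spike-in library sizes). SIL1, a nucleotide exchange factor of BiP, had the largest fall in MB468, -0.82 ± 0.07, and DNAJC1, a J-domain protein, the largest rise, 0.53 ± 0.07 (0.29 and not called with spike-in library sizes). In MB468res-R8 at 12 h SIL1 had -0.40 ± 0.07 (adjusted p = 2.47e-06), and DNAJC1 was at -0.08 and not called. The line difference was -0.61 ± 0.09 for DNAJC1 and 0.43 ± 0.05 for CANX, the membrane-bound relative of CALR. Of 16 isomerases and oxidases, 6 were higher and 5 lower in MB468 at 12 h (1 and 7 with spike-in library sizes), 9 higher and 4 lower in MB468res-R8 (4 and 2), and 8 higher and 2 lower for the line difference (7 and 2). ERO1B, an oxidase of the disulfide isomerases, and TXNDC11, a thioredoxin-domain protein of the ER, rose in MB468 by 0.62 ± 0.09 and 0.47 ± 0.05 (TXNDC11 0.23 and not called with spike-in library sizes), and their line differences were -1.09 ± 0.13 and -0.89 ± 0.07. Of 19 translocon and early secretory genes, 2 were higher and 13 lower in MB468 at 12 h (0 and 15), 7 higher and 3 lower in MB468res-R8 (4 and 1), and 11 higher and 0 lower for the line difference (9 and 0). KDELR3, a receptor that returns ER proteins from the Golgi, and SEC24D, a COPII coat protein, had the largest falls of this list in MB468, -1.11 ± 0.11 and -0.73 ± 0.09. In MB468res-R8 at 12 h SEC24D had -0.77 ± 0.09 (adjusted p = 6.38e-10), and KDELR3 was at -0.09 and not called. The line differences of KDELR3 and SPCS3, a signal peptidase subunit, were 1.03 ± 0.15 and 0.75 ± 0.09. For the PERK and ATF4 arm, 0 were higher and 11 lower for the line difference (0 and 9), with CHAC1 at -4.74 ± 0.15 and SESN2, a stress-induced regulator of mTORC1, at -3.22 ± 0.13. In MB468 at 12 h, SESN2 rose by 3.05 ± 0.09.

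**Figure D4:**
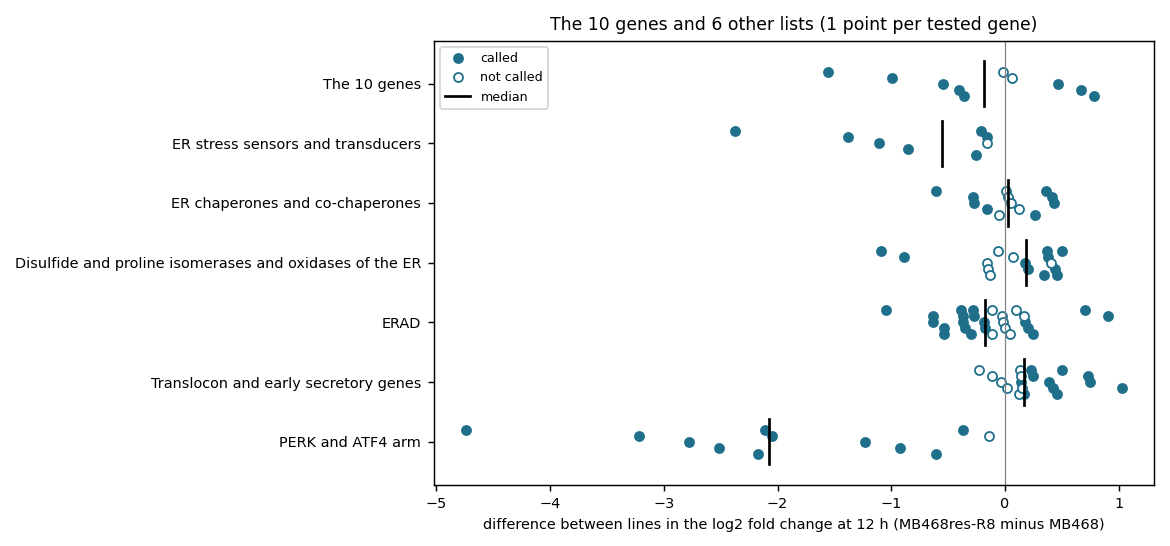
Difference between the lines in the log2 fold change at 12 h (MB468res-R8 minus MB468, x axis) for each tested gene of the 10 and of 6 other lists, filled where the adjusted p was under 0.05, with the median of each list as a bar. The 10 genes lie on both sides of 0 (median -0.19), the PERK and ATF4 arm to the left of it (median -2.08), and the translocon and early secretory genes mostly to the right (median 0.17).

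With TMM scaling, genes with an ERSE moved in both directions. Of the 4 genes with an ERSE, HSPA5 was called higher and HSP90B1, XBP1, and CALR lower in MB468 at 12 h, and the line differences were -0.40 for HSPA5, 0.47 for HSP90B1, -0.54 for XBP1, and 0.67 for CALR. Under library sizes from the spike-ins HSPA5 in MB468 was at 0.07 and not called (adjusted p = 0.649), while HSP90B1, XBP1, and CALR were still called lower. The line differences of HSPA5 and XBP1 were then not called (adjusted p = 0.58 and 0.223), and those of HSP90B1 and CALR were 0.73 and 0.93. Of the 2 with an ERSE-II, HERPUD1 rose by 1.33 at 0.5 h in MB468 and SDF2L1 was at 0.13 ± 0.12. At 12 h in MB468, the time given for the other genes here, HERPUD1 was at 0.20 (-0.04 with library sizes from the spike-ins) and SDF2L1 at 0.04. The 4 genes without a match in this window, PDIA4, DNAJB9, EDEM1, and SEL1L, included the largest fall (PDIA4) and the largest rise (DNAJB9) of the 10 in MB468 at 12 h. Among 25 other tested genes with an ERSE or ERSE-II, a list made after the values of the 10 had been seen, 7 were called higher and 14 lower in MB468 at 12 h (median -0.12), 8 higher and 9 lower in MB468res-R8 (median -0.02), and 11 higher and 8 lower for the line difference (median 0.19), beside medians of 0.01, -0.02, and -0.05 and the shares given above over all genes. FICD, which modifies BiP and was singled out from this list after its values were seen, had 0.79 in MB468 (adjusted p = 4.46e-05), -0.49 in MB468res-R8 (adjusted p = 0.0232), and a line difference of -1.28 (adjusted p = 2.85e-05). Values of the 25 genes are given with TMM scaling only.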

How the data were processed

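Per the labels and the study's methods, 24 poly(A) RNA libraries (8 groups of 3) were sequenced from one end (100 bp) and aligned by the authors with HISAT2 2.1.0 to GRCh38/hg38 joined with the ERCC sequences and counted per gene with featureCounts of Subread 1.5.3. The annotation release is not given in the sources used here. The deposited raw counts of 26645 gene entries were used. The deposited normalized counts, which cover fewer libraries, and the deposited results of the authors' own comparison (fold changes and p-values) were not used.

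The 92 spike-ins were left out, edgeR 4.0.16 (R 4.3.3) kept 14741 genes with filterByExpr (minimum count 10, minimum total 15), TMM factors scaled the libraries, and a robust quasi-likelihood model, fitted with 8 group means, gave each comparison, with Benjamini-Hochberg adjustment over all genes tested. Standard errors are the log2 fold change over the root of the F statistic, and intervals are at 95%. Lengths are those of the canonical transcripts of GENCODE on GRCh38, whose release need not be the authors', and promoters are from RefSeq. The code was tested on simulated data. The genes and lists were chosen with earlier results of these data known. All 10 genes are named, with DDIT3, CHAC1, PPP1R15A, ATF6, and ERN1, the 2 of each list with the largest called change in MB468 at 12 h and in the line difference at 12 h, and the 3 genes most like HSPA5, HERPUD1, and XBP1. Gene lists were written by hand.

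Alternatives were DESeq2 1.42.0 size factors and Wald test, an adjusted p under 0.01, library sizes set to the spike-in totals, a covariate made from the spike-ins, all genes without a filter, a filter of at least 10 counts in each library, a fit of only the libraries compared, a block for the replicate number, and the omission of each library in turn. Counts are not molecules, and replicate libraries of a group differed by more than counting error (chi-square per gene between 2.28 and 8.42).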

Additional observations from a re-analysis of the deposited data

Results flagged for a closer look

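Changes that differed between the lines by edgeR's quasi-likelihood test of the difference itself are given here, as the log2 fold change in MB468res-R8 less the one in MB468, with 3 libraries in each of the 4 groups of a contrast. In the 0.5 h response DNAJB9 differed by 0.57 (adjusted p = 0.00284) and HERPUD1 by -0.56 (adjusted p = 0.00303). In the 2 h response HERPUD1 differed by -0.40 (adjusted p = 0.0323), a call that single libraries decide. In the 12 h response the difference was -0.40 for HSPA5 (adjusted p = 2.22e-08), 0.47 for HSP90B1 (adjusted p = 6.46e-10), 0.78 for PDIA4 (adjusted p = 1.41e-14), -1.56 for DNAJB9 (adjusted p = 3.78e-14), -0.99 for HERPUD1 (adjusted p = 7.81e-08), -0.54 for XBP1 (adjusted p = 8.43e-08), -0.36 for SEL1L (adjusted p = 9.08e-05), and 0.67 for CALR (adjusted p = 1.01e-13). Not all of these held under library sizes from the spike-ins. Those of HERPUD1 at 0.5 and 2 h and of HSPA5, XBP1, and SEL1L at 12 h were then not called (adjusted p between 0.223 and 0.948).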

How the results depend on the processing

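Of the 45 calls of the 10 genes in the 10 comparisons, 40 kept their direction and their side of the threshold under every alternative other than spike-in totals as library sizes, an adjusted p under 0.01, and the omission of single libraries, and 34 kept both on leaving out each library in turn. Spike-in totals changed most: 22 calls were kept, 18 no longer passed, and 5 reversed, and 5 values became calls and 28 changed sign among the 55 not called. The 5 reversed values were -0.13 for SEL1L at 0 h, -0.12 for HSPA5 and -0.0707 for SEL1L in MB468 at 0.5 h, -0.20 for XBP1 in MB468 at 2 h, and -0.0362 for HERPUD1 in MB468 at 12 h. With spike-in totals the number of the 10 genes called was 5 at 0 h (4 otherwise), 1 in MB468 at 0.5 h (4 otherwise), 9 in MB468 at 2 h (2), 2 in MB468res-R8 at 0.5 h (6), 0 at 2 h (3), and 3 at 12 h (6), and for the line difference 1 at 0.5 h (2), 0 at 2 h (1), and 5 at 12 h (8). At an adjusted p under 0.01 it was 2 in MB468 and 3 in MB468res-R8 at 0.5 h and 0 for the line difference at 2 h, which was also 0 with only the libraries compared. Leaving out single libraries gave 2 to 3 in MB468 at 0.5 h, 0 to 3 in MB468res-R8 at 2 h, and 0 to 1 for the line difference at 2 h.

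Over all genes, spike-in totals gave 3287 calls in MB468 at 0.5 h (5000 with TMM), 9511 at 2 h (2410), and in MB468res-R8 2023 at 0.5 h (4967), 180 at 2 h (644), and 5887 at 12 h (9036), and 101 for the line difference at 0.5 h (428). The share of calls that were higher went from 49.4% to 15% at 0 h, in MB468 from 51.8% to 14% at 0.5 h, 54.3% to 2.52% at 2 h, and 51% to 30% at 12 h, and for the line difference from 41.4% to 79.2%, 43.2% to 93%, and 46.3% to 69.9% at 0.5, 2, and 12 h. The cause was not tested. With spike-in totals the median of all genes was -0.20, -0.42, and -0.23 in MB468 at 0.5, 2, and 12 h. It was 0.04, -0.04, and 0.00 in MB468res-R8, and 0.26, 0.38, and 0.20 for the line difference. With TMM these medians lay between -0.05 and 0.01. Spike-ins were 0.201% to 0.303% of counts in single libraries. With the replicate number as a block, all 45 calls were kept and 1 value became a call. The labels do not say that a number marks a shared culture or day. In each comparison at least 1 pair of libraries with the same number had a correlation of deviations of 0.1 or less, although some pairs were higher (up to 0.464 in MB468res-R8 at 2 h against 0 h), and the samples were not treated as paired.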
